A study of Mus musculus with 2 samples.

Results

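The cells described here are B lineage progenitors found inside the LSK gate of mouse bone marrow, the lineage-negative, Sca1+ c-Kit+ fraction that is sorted to obtain blood stem cells and multipotent progenitors. They were selected on measured values. A barcode counted as a kept cell when it had 1000 or more unique molecular identifiers (UMIs), 500 or more genes and no more than 10% of its UMIs from mitochondrial genes, and a kept cell in which Ebf1, Cd79a, Vpreb1, Vpreb3 and Igll1 together reached 10 UMIs per 10000 counted as a member. The rule found 144 members among 12318 kept cells, 115 of 7190 in the control library and 29 of 5128 in the irradiated library.

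The study profiled single cells by the 10x Genomics 3' method in 2 libraries of bone marrow LSK cells from C57BL/6J mice aged 6 to 8 weeks. The control library came from mice with no irradiation, and the other from mice given 5 Gy of total body irradiation and taken at day 15. Both were sorted by flow cytometry with antibodies to lineage markers, Sca1 and c-Kit and with a viability dye. Each group is 1 library, and the number of mice in it was not stated, so no difference between the libraries can be tested. Intervals given below are exact 95% intervals that cover counting error only and say nothing of the spread between mice. Intervals of ratios use UMIs summed over cells, so they also leave out the spread between cells.

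B cells arise in bone marrow from lymphoid progenitors that respond to interleukin 7. The factor Ebf1, with E2A and Foxo1, switches on the early B lineage genes, and Pax5 then commits the cell. Cells that have joined an immunoglobulin heavy chain gene test it at the surface as a pre-B cell receptor, in which Vpreb1, Vpreb2 and Igll1 form a surrogate light chain and Cd79a and Cd79b carry the signal. Cells that pass divide, turn the surrogate light chain off and rearrange a light chain gene such as Igkc. B lineage progenitors usually carry less c-Kit than stem and multipotent progenitors.

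The genes behind the selection lie at separate places in the mouse genome (build GRCm38), apart from Vpreb1 and Igll1, which are neighbours. Ebf1 lies at chr11:44617317-45008091 on the plus strand, Cd79a at chr7:24897381-24902197 on the plus strand and Vpreb3 at chr10:75943057-75949657 on the plus strand. Vpreb1 lies at chr16:16868403-16870843 and Igll1 at chr16:16860671-16863985, both on the minus strand. Upstream sequence from RefSeq (GRCm38.p6) is printed for Foxo1 and for the selection genes whose window holds at least 100 bases outside annotated exons. Binding of Ebf1 or E2A to these stretches was not measured. The E-box recognised by E2A (letters CANNTG, read on both strands since it is palindromic) is in capitals, except in Foxo1, where the capitals mark the EBF1 palindrome.

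Cd79a, chr7:24897247-24897380, plus strand: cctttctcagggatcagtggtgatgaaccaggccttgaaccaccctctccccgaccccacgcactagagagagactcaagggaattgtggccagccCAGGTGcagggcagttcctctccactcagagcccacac
Ebf1, chr11:44619978-44620227, plus strand: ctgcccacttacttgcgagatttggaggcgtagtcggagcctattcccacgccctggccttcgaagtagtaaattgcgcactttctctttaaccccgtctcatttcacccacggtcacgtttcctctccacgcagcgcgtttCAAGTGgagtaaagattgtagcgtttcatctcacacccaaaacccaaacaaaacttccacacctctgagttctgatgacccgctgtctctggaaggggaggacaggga
Igll1, chr16:16863986-16864235, minus strand: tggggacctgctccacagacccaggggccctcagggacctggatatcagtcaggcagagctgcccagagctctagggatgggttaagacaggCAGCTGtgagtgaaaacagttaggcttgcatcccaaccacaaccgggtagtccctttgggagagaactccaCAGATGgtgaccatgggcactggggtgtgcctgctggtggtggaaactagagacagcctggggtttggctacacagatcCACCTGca
Vpreb3, chr10:75948050-75948299, plus strand: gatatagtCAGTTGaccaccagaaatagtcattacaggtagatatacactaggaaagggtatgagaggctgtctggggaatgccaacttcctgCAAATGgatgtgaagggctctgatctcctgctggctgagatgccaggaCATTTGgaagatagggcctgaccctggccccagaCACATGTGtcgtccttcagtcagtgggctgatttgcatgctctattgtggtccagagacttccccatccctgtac
Foxo1, chr3:52268087-52268335, plus strand: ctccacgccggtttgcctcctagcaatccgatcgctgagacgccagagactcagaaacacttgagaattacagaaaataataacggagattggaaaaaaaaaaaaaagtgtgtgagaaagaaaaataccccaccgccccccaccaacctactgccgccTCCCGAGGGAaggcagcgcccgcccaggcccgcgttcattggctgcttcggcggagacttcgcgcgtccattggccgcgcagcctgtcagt

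The printed Cd79a and Ebf1 stretches held 1 E-box each, that of Igll1 held 3 and that of Vpreb3 held 5, of which 2 overlap. The Ebf1 and Vpreb3 stretches precede RefSeq starts that lie inside the gene spans given above. The EBF1 palindrome (letters TCCCNNGGGA, palindromic) was in 3 of 85 promoters, 250 bases each, of the 66 B lineage genes that matched the RefSeq table, out of 92 looked up. Those were the promoters of Cd22, Foxo1 and Il2rg, and the share of 3.53% stands beside 0.779% of all 32851 promoters in the table. The E-box was in 69.4% of the B lineage promoters and in 66.2% of all. No promoter of a selection gene held the palindrome in this window, which says only that these exact letters are not there.

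The summed level of the selection genes separated the members from most other cells in the control library more sharply than in the irradiated one. Control members ran from 14.3 to 277 UMIs per 10000 with a median of 77.9. Irradiated members ran from 11.2 to 366 with a median of 57.3. In the rest of each library the sum was 0 in 93.8% of control and 89.1% of irradiated cells. Just inside the threshold stood control members at 14.3 and 14.4 and irradiated members at 11.2, 12.2 and 12.5, and just outside it stood control cells at 9.21 and 5.15 and irradiated cells at 9.36, 7.75 and 7.62. Sums from 5 to 10 were held by 2 control cells and 11 irradiated cells, which is 1.71% (0.208 to 6.04) and 27.5% (14.6 to 43.9) of all cells with a sum of 5 or more.

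**Figure D1:**
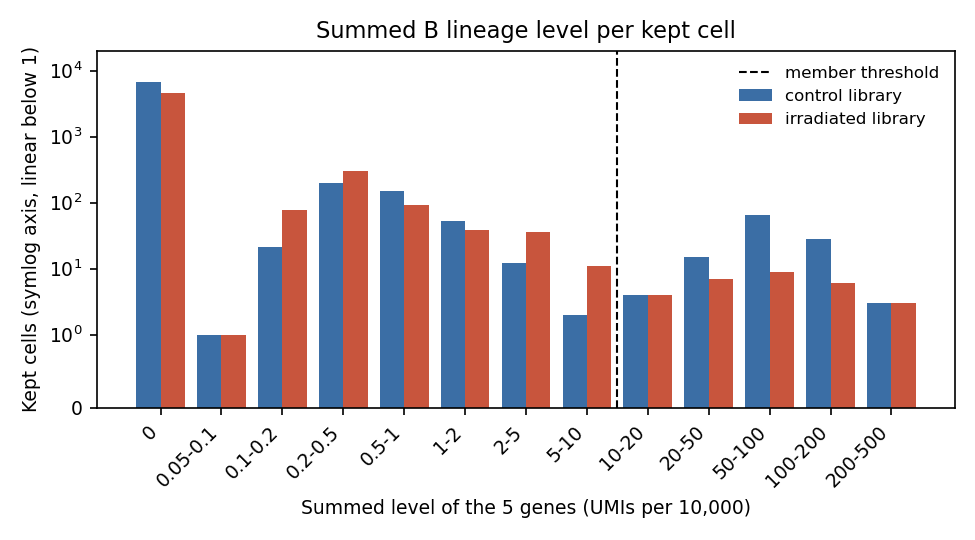
Kept cells (y, symlog axis) by the summed level of Ebf1, Cd79a, Vpreb1, Vpreb3 and Igll1 (x, UMIs per 10,000), in bars for the control and the irradiated library, with a dashed line at the member threshold. The control library holds 2 cells between 5 and 10 and the irradiated library 11, beside 115 and 29 members to the right of the line.

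Members made up 1.60% of kept control cells (1.32 to 1.92) and 0.566% of kept irradiated cells (0.379 to 0.811). Lymphoid-primed cells, taken here as non-members with at least 5 UMIs per 10000 of Dntt, the polymerase that adds bases at V(D)J joints, made up 25.8% and 10.6% of kept cells. Set against that compartment, members were 115 of 1969 in control (5.84%, 4.85 to 6.97) and 29 of 571 after irradiation (5.08%, 3.43 to 7.21). With 1 library a group, neither pair of shares can be tested. A share depends on the numbers of all other cells in the sort, and absolute cell numbers were not analysed here.

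Depth differed between the libraries in a way that members did not follow. The median member had 22003 UMIs in control and 20420 after irradiation, against 16038 and 29702 in the rest, and mitochondrial UMIs were 3.34% and 3.21% of a median member. 16 barcodes occurred in both libraries and none of them was a member. A doublet caller (Scrublet) marked 2 control and 16 irradiated kept cells, 0.0278% and 0.312%, far under its expected rate of 6%. Its calls were not used and no cell was removed by them, and 1 of the 2 called control cells was a member. Among the 6% of cells with the highest doublet scores were 14 control and 14 irradiated members, and the part of doublets in the results was not tested.

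Each selection gene was abundant in both sets of members and close to absent elsewhere. Ebf1, the lineage factor, had a median of 19.9 UMIs per 10000 in control members (0.754 to 81.3) and 14.9 in irradiated members, and was detected in all 144. Cd79a, the signalling chain of the receptor, was detected in all 115 control members and in 28 of 29 irradiated members, with medians of 13.1 and 11.3. Summed over cells, Ebf1 was at 1888 counts per 1000000 UMIs (CPM) in control and 1523 CPM in irradiated members, against 1.26 and 3.58 CPM in the rest. Since these genes chose the cells, this is a description of the selection.

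Vpreb1, Igll1 and Vpreb3 were each absent from some members of both libraries. Vpreb1 was detected in 103 of 115 control and 24 of 29 irradiated members, Igll1 in 103 and 24, and Vpreb3, which binds nascent immunoglobulin chains, in 109 and 23. All of the selection genes were detected together in 99 control members (86.1%, 78.4 to 91.8) and in 21 irradiated members (72.4%, 52.8 to 87.3). After each cell was thinned to 5000 UMIs, which left out 11 control members and 1 irradiated member, these shares were 89.4% and 67.9%. Vpreb1 and Igll1 varied together from cell to cell, with a Spearman rho of 0.66 over the control and 0.94 over the irradiated members, and Ebf1 and Vpreb3 did so at 0.74 and 0.75. These correlations describe cells of 1 library each, and the selection on the sum bears on them. Members ranged in depth from 2402 to 49008 UMIs in control and from 2702 to 73912 after irradiation. The part of depth in the correlations was not tested.

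**Figure D2:**
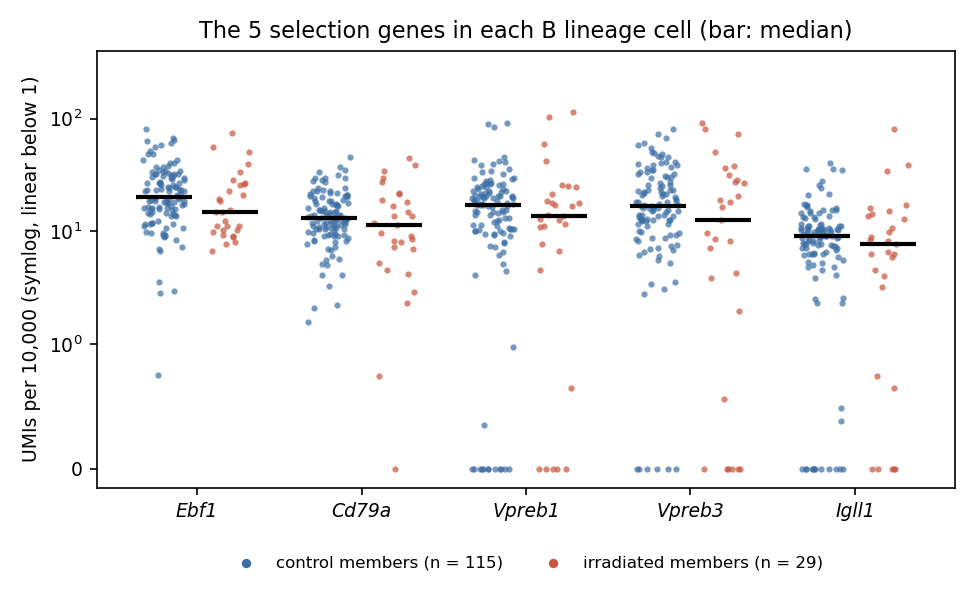
Level of each selection gene (y, UMIs per 10,000, symlog axis) in single control (n = 115) and irradiated (n = 29) members, with a bar at the median. Ebf1 is above 0 in every member, while Vpreb1, Vpreb3 and Igll1 are at 0 in 5 or more members of each library.

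Some members lacked a selection gene. In control they were 16 cells, of which 11 held a UMI of Igkc, the kappa light chain constant region, 6 of Ms4a1 (CD20) and 7 of Dntt, and the 5 without Igkc all held Dntt. After irradiation they were 8 cells, of which 1 held Igkc, none Ms4a1 and 8 Dntt. Flt3, the receptor carried by early lymphoid progenitors, was detected in 5 of the 16 and in 6 of the 8, and Cd34 in 3 and 6. The 8 irradiated cells held Ly6a, which encodes Sca1, at 904 CPM and Dntt at 1391 CPM, beside 306 and 856 CPM in the 21 irradiated members with every selection gene. This split was made after the values were seen, uses the selection genes themselves and rests on few cells of 1 library each. The cells that lacked a selection gene were also shallower. Median depth was 7536.5 UMIs beside 22885 in the control members with every selection gene, and 14774.5 beside 24897 after irradiation. The part of depth in these detection counts was not tested.

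A small light chain-bearing subset was seen in control members. Igkc (chr6:70726435-70726966, plus strand) reached at least 10 UMIs in 10 of 115 control members (8.70%, 4.25 to 15.4) and in 0 of 29 irradiated members, where a count of 0 allows a share of up to 10.3%. None of the 10 held Igll1, 2 held Vpreb1 and 1 held Rag1, while 7 held Pax5 and all 10 held Ighm. Most of the 10 were shallow, at 2402 to 4043 UMIs, and the deepest had 28206. The median control member had 22003 UMIs. The part of depth in the absence of Igll1, Vpreb1 and Rag1 was not tested. Igkc counts of the 10 cells ran from 15 to 7185 UMIs with a median of 27.5 and a second highest value of 117. The cell with 7185 held 95.6% of all control Igkc UMIs and 46.9% of all control Ighm UMIs, with no UMI of Vpreb1, Vpreb3, Igll1 or Pax5 and with 49 of Cd79a, 7 of Ms4a1 and 116 of Cd74. Any UMI of Igkc was found in 2.02% of control and 8.70% of irradiated granule-gene cells, which should lack it, at median depths of 38600 and 43251 UMIs. These were 198 and 1460 non-members with at least 50 UMIs per 10000 of Elane, Mpo, Prtn3 and Ctsg together.

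Against the rest of their own library, members showed a broad B lineage programme. A gene was listed when the mean of the 2 CPM values compared was at least 50, and called when they differed at least 2-fold. Of 2609 listed genes in control, 216 (8.28%) were higher and 127 (4.87%) lower in members. Of 2572 in the irradiated library, 161 (6.26%) were higher and 102 (3.97%) lower, and 114 were higher and 55 lower in both. The median log2 ratio over listed genes was 0.16 in control and -0.01 after irradiation. The contrast is the one the cells were chosen by, so it is given as a description.

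Pax5, the commitment factor of the lineage, reached 139 CPM in control members and 164 CPM in irradiated members, against 0.059 and 0.0675 CPM in the rest. Of single members, 104 of 115 and 21 of 29 held a Pax5 UMI. Among other factors, Lef1, a Wnt pathway factor of early B cells, was at 189 and 142 CPM in members. Pou2af1, a co-activator of octamer factors at immunoglobulin promoters, was at 110 and 74.0 CPM. The list of 23 lymphoid and B lineage factors was mixed. In control 14 were listed, with 5 called higher and 1 lower (Pou2f2). Of these 9 were above 0, with a median log2 ratio of 0.10 beside 0.16 over all listed genes. After irradiation 12 were listed, with 5 higher and 1 lower (Spi1), 9 above 0 and a median of 0.57 beside -0.01. Pax5, Tcf3 (E2A) and Lef1 were higher in both libraries.

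Genes of the pre-B cell receptor were high together. Of 10 receptor and signalling genes, 7 were listed in each library and the same 4 were called higher in both, namely Cd79b, Vpreb2, Ighm and Blnk. Vpreb2 reached 217 CPM in control members and 289 CPM in irradiated members against 0.125 and 0.313 CPM in the rest, but it is nearly identical to Vpreb1, and reads of the pair may have been split between them. Cd79b, the partner of Cd79a, stood at 429 and 380 CPM in members against 36.7 and 28.5 CPM. Blnk, the adaptor that links the receptor to its kinases, stood at 352 and 261 CPM in members against 4.71 and 1.89 CPM. Mzb1, an endoplasmic reticulum chaperone partner for immunoglobulin, stood at 607 and 621 CPM in members, against 1.66 and 2.39 CPM.

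The listed recombination genes lay above the rest in members, while the interleukin 7 receptor pathway was mixed. Rag1, a subunit of the V(D)J recombinase, reached 72.7 CPM in control members and 75.5 CPM in irradiated members, against 0.730 and 0.816 CPM, and was detected in 62 of 115 and 17 of 29. Against the rest, Rag1 was under the listing threshold in both libraries, so it could not be called. Dntt was shared with the other lymphoid cells: 1019 and 975 CPM in members, 436 and 160 CPM in the rest, and 1401 and 1462 CPM in the Dntt-selected cells. Il7r, the interleukin 7 receptor chain, stood at 199 and 138 CPM in members against 10.7 and 3.51 CPM, and was the sole gene of its 14-gene pathway list called higher in either library. Of that list 5 genes were listed in control, with Il7r alone above 0 and a median log2 ratio of -0.40, and 4 after irradiation, with 3 above 0 and a median of 0.20. Bcl2, which protects cells from death, was called lower in control members, at 33.8 against 87.8 CPM. Of the 12 recombination genes, 4 were listed in each library. Called higher were 4 in control (Dntt, Xrcc6, Hmgb1 and Hmgb2) and 3 after irradiation (Dntt, Xrcc6 and Hmgb1).

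On the surface list of 17 genes, 8 were listed in each library. Cd24a, Cd37 and Ly6d were higher in members of both, and Cd93 in the irradiated library as well. Ly6d, which marks B-biased lymphoid progenitors, had a median of 3.64 UMIs per 10000 in control members and 0.669 in irradiated members, although the summed levels were 458 and 443 CPM, so a few irradiated cells held most of it. Other genes named by the size of the difference were Gfra2, Cecr2, Akap12, Bfsp2, Cplx2, Slamf6, Arl5c, Sdc4, Nedd9 and Ighg2b, each higher in members of both libraries.

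The genes of the sort gate did not follow the gate evenly. Kit, which encodes c-Kit, stood at 37.0 CPM in control members against 134 CPM in the rest (log2 ratio -1.86, -2.17 to -1.56), and at 28.5 against 73.7 CPM in the irradiated library (-1.37, -2.08 to -0.74). Cd34, a progenitor surface gene that was no part of the sort, stood at 30.9 against 376 CPM and at 48.4 against 231 CPM. Ly6a stood at 135 against 156 CPM in control (log2 ratio -0.20, -0.36 to -0.05) and at 438 against 216 CPM after irradiation (1.02, 0.85 to 1.18). At 5000 UMIs per cell, Kit was detected in 20.2% of control and 14.3% of irradiated members, and in 48.7% and 32.2% of the rest. Transcript levels were measured here, and surface protein was not.

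**Figure D3:**
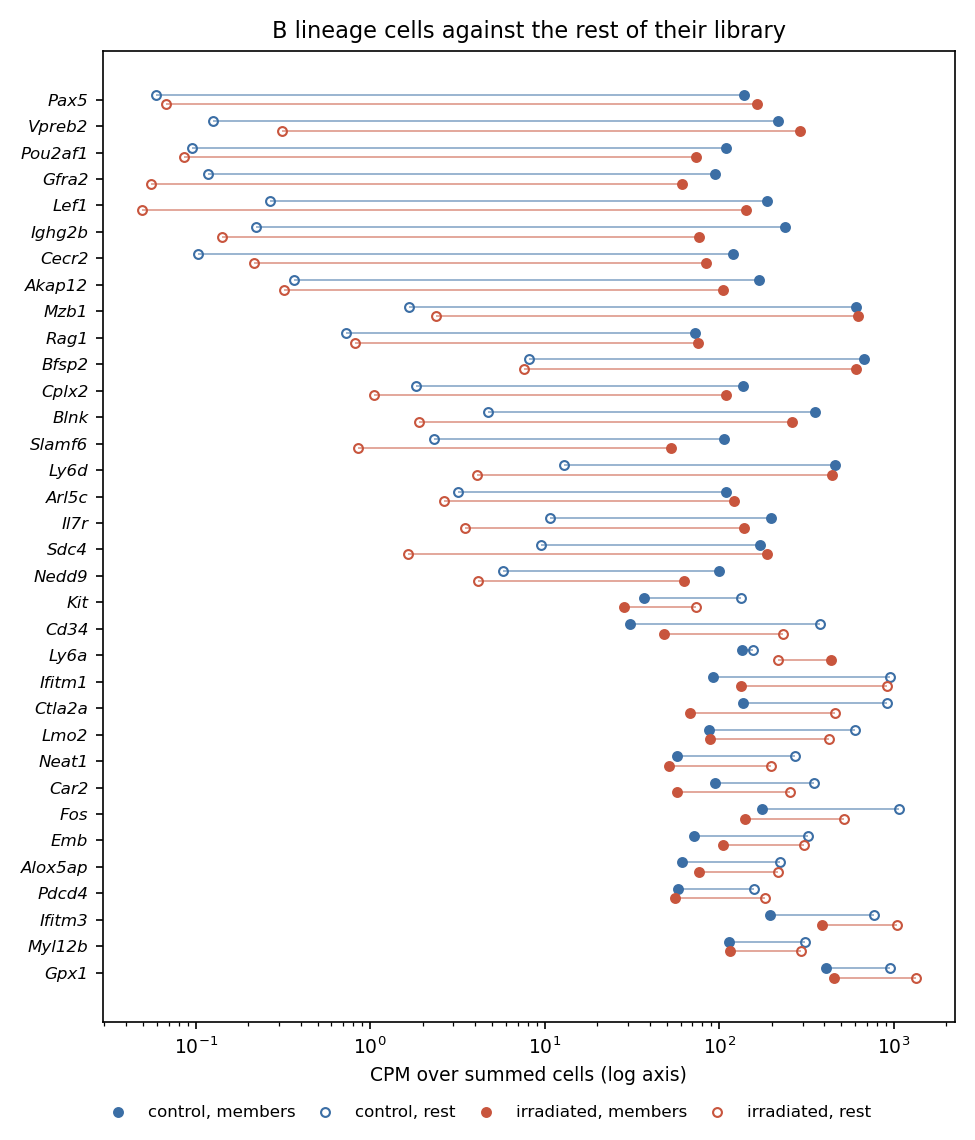
Summed level (x, CPM, log axis) of genes named by size in members (filled) and in the rest of their library (open), for the control and the irradiated library, with Kit, Cd34 and Ly6a between the higher and the lower group. Pax5 runs from 0.059 to 139 CPM in control, while Kit and Cd34 are lower in members of both libraries and Ly6a changes side.

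The listed neutrophil-primed genes, many immediate early genes and the listed stem cell genes were lower in members. Of 7 neutrophil-primed genes, 3 were listed in control and 5 after irradiation, all of them called lower. Of 9 stem cell genes, Hlf and Meis1 alone were listed, in control, where both were called lower, at 14.1 against 145 CPM and 26.1 against 139 CPM, and none was listed after irradiation. Lmo2, a factor of stem and progenitor cells, stood at 87.2 CPM in control members against 600 CPM in the rest, and at 88.3 against 426 CPM after irradiation. Ifitm1, Ctla2a, Neat1, Car2, Emb, Alox5ap, Pdcd4, Ifitm3, Myl12b and Gpx1 were also lower in both libraries. Fos, a growth factor-induced immediate early gene, stood at 177 against 1066 CPM and at 141 against 515 CPM. Of 15 immediate early genes, 13 were listed in each library, with 11 lower in control and 5 lower after irradiation. Btg1, an antiproliferative gene on that list, was called higher in irradiated members, at 172 against 75.3 CPM. The level of these genes in the rest was itself lower in the irradiated library (median log2 ratio of irradiated over control -1.18).

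Members were rich in cell cycle transcripts. Of 16 G2/M phase genes, 15 were listed in each library, and 15 were higher in control members and 12 in irradiated members, with median log2 ratios of 1.94 and 1.21. Top2a, the topoisomerase of dividing cells, stood at 1115 CPM in control members against 334 CPM in the rest, and at 839 against 324 CPM after irradiation. Ccnd3, the D cyclin required for pre-B cell expansion, stood at 918 against 85.1 CPM and at 532 against 91.5 CPM. At 5000 UMIs per cell, Mki67, a marker of cycling cells, was detected in 86.5% of control members (78.5 to 92.4) and 64.3% of irradiated members (44.1 to 81.4), beside 22.9% and 37.0% of the rest. Of 16 S phase genes, 14 were listed, of which 3 were higher in control members and none in irradiated members.

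Some markers of several other cell types were at 0 in members, while the T and NK list was not empty and the dendritic list not sparse. The summed T and NK list was 0 in 49.6% of control and 37.9% of irradiated members, beside 16.8% and 6.35% of the rest. The summed erythroid list was 0 in 94.8% and 79.3% of members, beside 75.7% and 40.4%. Genes named next were picked for being at 0 in both libraries, and other genes of their lists were detected. Cd3d, Cd3e, Bcl11b, Gzma and Il2rb of the 13-gene T and NK list, Klf1 and Epor of the 7 erythroid genes, Siglech and Clec9a of the 8 dendritic genes, and Cpa3, Ms4a2 and Fcer1a of the 5 mast cell and basophil genes were at 0 in members of both libraries. The summed dendritic list had a median of 3.14 UMIs per 10000 in control members and 2.91 in the rest, and of 5.61 and 3.68 after irradiation. Its genes Cd74 and H2-Ab1, which B lineage cells also express, were called higher in control members, and no gene of it was called in the irradiated library. Cd74 stood at 1406 CPM in the 16 control members that lacked a selection gene and at 29.6 CPM in the other 99. The summed stem cell list of 9 genes had a median of 0 in both sets of members and ran to 8.66 UMIs per 10000 in control and 0.838 after irradiation. The neutrophil-primed list of 7 genes had a median of 0 in control members, with a range from 0 to 9.39, and of 1.96 in irradiated members, with a range from 0 to 16.6. In the rest the medians were 6.30 and 13.7. No macrophage or megakaryocyte gene reached the listing threshold in either library, and of the monocyte-primed genes Ly6c2 alone did so, in the irradiated library, where it was lower in members. S100a8 and S100a9 of the mature neutrophil list were lower in control members, and Mzb1 was the sole listed plasma cell gene. Of 12 light chain and mature B cell genes 4 were listed in each library. In control members Igkc, Cd74 and H2-Ab1 were higher and Iglc1 lower, with 95.6% of the Igkc UMIs in 1 cell. In irradiated members none was higher and Igkc was lower. Of 11 early lymphoid genes 9 were listed, with Dntt, Il7r and Ly6d higher in members of both libraries, Flt3 lower in control members and Cd27 lower in both.

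Between the 2 sets of members few genes differed by size. Of 2602 listed genes, the irradiated members were higher by 2-fold or more in 17 (0.653%) and lower by 2-fold or more in 12 (0.461%), and the median log2 ratio was -0.04. Among the members with all of the selection genes detected, an alternative added after the data were seen, the counts were 8 and 7. Without the 6% of cells with the highest doublet scores, which took out 14 of the 29 irradiated members, they were 142 and 120. Most of the B lineage genes that were listed differed by less than 2-fold. Pax5 had a log2 ratio of 0.24 (-0.08 to 0.54), Rag1 of 0.05 (-0.42 to 0.50) and Dntt of -0.06 (-0.19 to 0.06). All 5 selection genes were lower in irradiated members with intervals below 0 and a median of -0.20, and these chose the cells. Il7r was at -0.52 (-0.85 to -0.21). Slamf6, a receptor of the SLAM family, was called lower at -1.01 (-1.55 to -0.51), as was Ighm at -1.17. Listed were 17 of the 23 lineage factors, 5 of the 12 recombination genes and 11 of the 17 surface genes, and only these could be called. None of them was called in either direction, beside 0.653% of all listed genes called higher and 0.461% called lower.

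**Figure D4:**
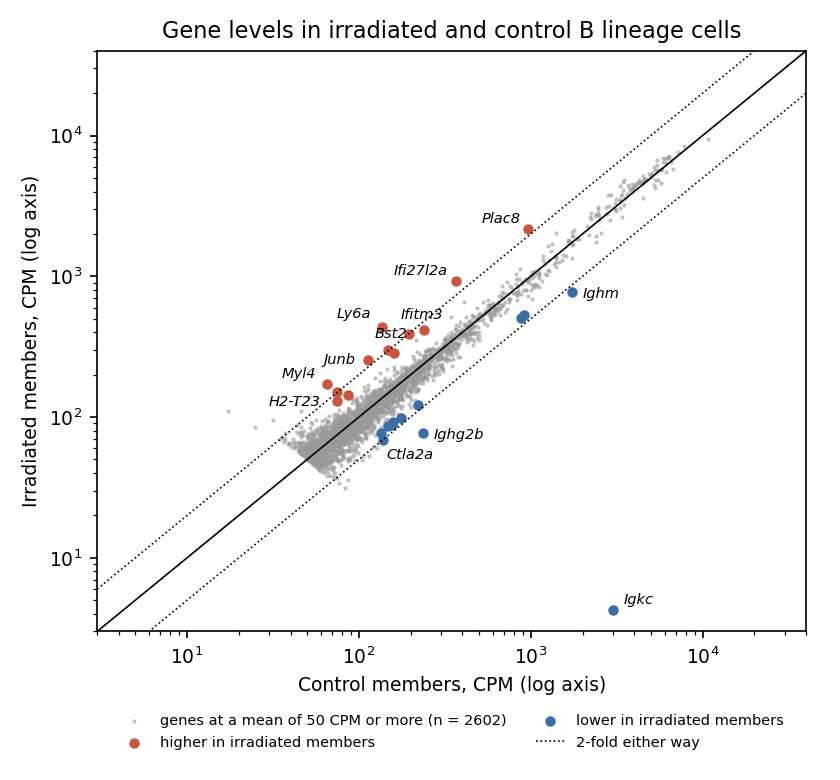
Summed level of each listed gene in irradiated (y) against control (x) members, in CPM on log axes, for 2602 genes, with the genes named by size in colour and dotted lines at a 2-fold difference. Most points lie along the diagonal, 17 lie above the upper dotted line and 12 below the lower one, with Igkc at 3019 CPM on the control axis and 4.27 CPM on the other.

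Ly6a (chr15:74994877-74998031, minus strand) had the largest increase among genes at a mean of 100 CPM or more. It was detected in 75 of 115 control members, with a median of 0.712 and a highest value of 11.5 UMIs per 10000, and in 26 of 29 irradiated members, with a median of 2.59 and a highest value of 28.5. The ranges overlapped, since both libraries held members at 0. Summed, it stood at 135 and 438 CPM, 3.24-fold higher after irradiation (log2 ratio 1.70, 1.47 to 1.92). In members with all of the selection genes the levels were 125 and 306 CPM (log2 ratio 1.29, 1.00 to 1.57). Ly6a differed in the same direction in the Dntt-selected cells, at 177 and 399 CPM, and in the rest, at 156 and 216 CPM.

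Interferon-induced genes were higher in irradiated members. Ifi27l2a, an interferon-induced gene, had a median of 1.78 UMIs per 10000 in control members and 9.03 in irradiated members, with highest values of 66.6 and 75.4, and stood at 365 and 921 CPM (log2 ratio 1.33, 1.19 to 1.48). Bst2, the tetherin that holds virus particles at the cell surface, stood at 147 and 299 CPM (1.03, 0.78 to 1.28). Ifitm3, which blocks entry of viruses, stood at 195 and 390 CPM (1.00, 0.78 to 1.22). Of the 26 interferon genes on the list, 7 were listed, all 7 had a positive log2 ratio, 4 were called higher (Ifi27l2a, Bst2, Ifitm3 and Ifi47) and the median was 1.00, beside 0.653% of all listed genes called higher. With members limited to those with all of the selection genes, 7 of 7 were still positive, but 1 was called, with a median of 0.89. In the rest, 9 were listed, all 9 were positive and none was called, with a median of 0.56. The difference between members and rest was not tested.

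Other genes higher by size included Plac8, at 970 and 2161 CPM, H2-T23, a non-classical MHC class I gene, at 74.7 and 151 CPM, and Myl4, a myosin light chain, at 65.1 and 171 CPM. Ifi203, Hspa5 (the BiP chaperone) and Tfrc (the transferrin receptor) were under 2-fold higher, at 1.78-, 1.76- and 1.73-fold. Junb, an immediate early gene, stood at 113 and 256 CPM, but at 92.4 and 82.4 CPM in members with all of the selection genes. Cdkn1a, the p21 inhibitor and a p53 target, behaved likewise, at 86.0 and 144 CPM in all members and at 87.1 and 67.7 CPM in those with every selection gene. In the 8 irradiated members that lacked a selection gene, Junb stood at 865 CPM and Cdkn1a at 410 CPM. Of the 18 p53 targets on the list 3 were listed and none was called. Of the 11 early lymphoid genes 8 were listed, and Flt3 alone was called, beside 0.653% of all listed genes called higher. Flt3 stood at 37.0 and 76.9 CPM (log2 ratio 1.06, 0.54 to 1.56), with a log2 ratio of -1.48 in the rest. In members with every selection gene it stood at 36.3 and 54.9 CPM.

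**Figure D5:**
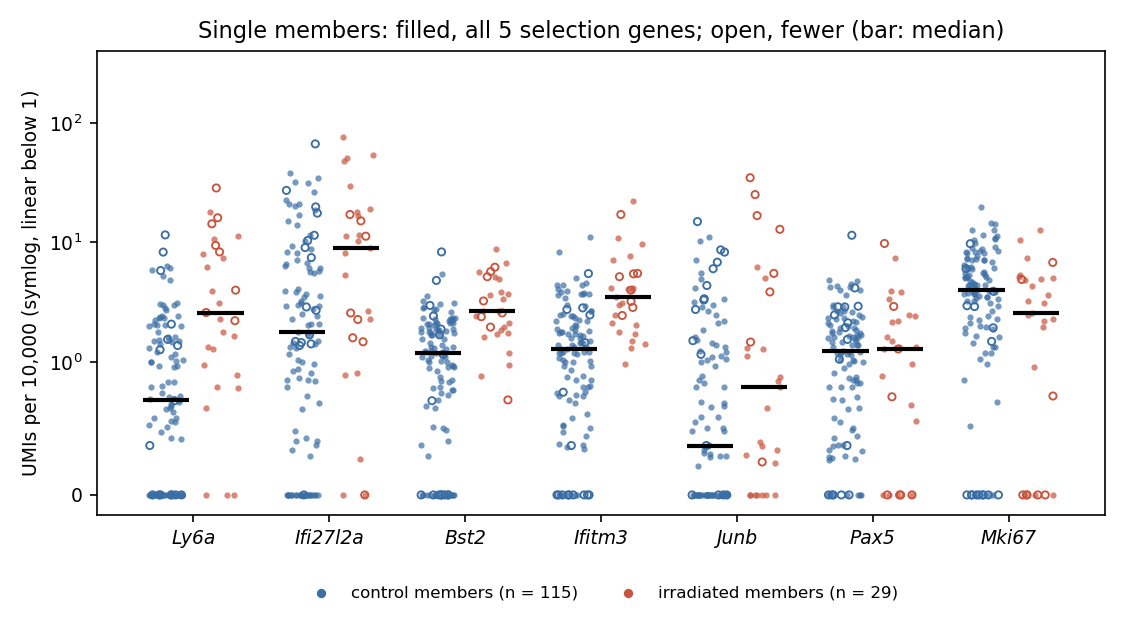
Levels (y, UMIs per 10,000, symlog axis) of 7 genes in single control and irradiated members, filled where all of the selection genes were detected and open where fewer were, with a bar at the median of all members. Ly6a, Ifi27l2a, Bst2 and Ifitm3 have higher medians in irradiated members, and the highest Junb values after irradiation are open points.

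Granule genes were also among those called higher. Mpo, the neutrophil peroxidase, was detected in 13 of 115 control members at 17.3 CPM in all and in 23 of 29 irradiated members at 111 CPM. The rest of the irradiated library held Mpo at 1425 CPM and the rest of the control library at 394 CPM. At 5000 UMIs per cell, Mpo was detected in 4.81% of control and 42.9% of irradiated members. Prtn3, another granule gene, stood at 43.0 and 124 CPM in members and at 741 and 2465 CPM in the rest. Granule-gene cells numbered 198 in the control and 1460 in the irradiated library, and the part of RNA released by other cells in the Mpo counts of members was not tested.

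On the lower side, immunoglobulin transcripts led. Igkc was at 3019 CPM in control members and at 4.27 CPM in irradiated members, and the single cell described above held most of it. Ighm, the heavy chain constant region of IgM, stood at 1740 and 776 CPM (log2 ratio -1.17, -1.30 to -1.04), but at 887 and 809 CPM (-0.13, -0.29 to 0.02) in members with all of the selection genes, a set without that cell. Medians of Ighm per member were 8.93 and 7.80 UMIs per 10000. Ighg2b stood at 237 and 76.9 CPM, and at 255 and 73.2 CPM in members with every selection gene.

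Several cell cycle genes were lower in irradiated members. Hist1h1b, a linker histone of S phase, was at 878 CPM for control members and 505 CPM for irradiated ones (log2 ratio -0.80, -0.96 to -0.63) and at 172 and 271 CPM in the rest. Ccnd3 had a log2 ratio of -0.79 (-0.95 to -0.63) in members and of 0.11 in the rest. Pbk, Fbxo5 and Cenpm, which act in mitosis or at its entry, were at log2 ratios of -0.84, -0.82 and -0.77, and Topbp1, a replication checkpoint protein, at -0.81. In the rest, Pbk, Fbxo5 and Cenpm were at 0.20, 0.25 and 0.04, and Topbp1 at -0.23. None of the S phase or G2/M genes on the lists was called, but all 14 listed S phase genes were below 0, with a median of -0.33 in members and 0.15 in the rest, and the G2/M median was -0.25 in members and 0.42 in the rest. Ctla2a, Ezr and Rsrp1 completed the lower group.

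Ebf1 was also seen outside the members. Among the Dntt-selected cells it was detected in 67 of 1854 control cells (3.61%, 2.81 to 4.57) and 108 of 542 irradiated cells (19.9%, 16.6 to 23.5), at 3.55 and 35.7 CPM. Without the cells at a sum of 5 or more the shares were 3.56% and 18.4%. At 5000 UMIs per cell they were 1.68% (1.14 to 2.37) and 9.06% (6.78 to 11.8), beside 1.02% and 0.137% of granule-gene cells. Pax5 was detected in 0 of the 1854, which allows a share of up to 0.162%, and in 7 of the 542. Of the 11 irradiated cells at a sum of 5 to 10, 10 held Ebf1, 10 Dntt and 10 Flt3, 2 held Pax5 and none held Igll1.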

How the data were processed

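Single-cell RNA of LSK cells was measured in 2 libraries, 1 per group. The values the authors deposited are raw UMI counts, 1 whole number per gene and barcode, for 7686 control and 5596 irradiated barcodes (139274656 and 165119247 UMIs). Cell Ranger 2.1.1 and build mm10 are named per the submitters' processing notes, but the header line of each matrix carries software version 3.1.0, and this difference is unresolved. The filter removed 496 control and 468 irradiated barcodes. Counts were read with Python 3.11.15 and scanpy 1.11.5, summed over members (2488382 and 702402 UMIs) and over the other kept cells, and divided by their totals to give CPM. Log2 ratios carry exact conditional Clopper-Pearson intervals at 95%. These were checked on simulated counts drawn independently from a pooled profile, which is what the interval assumes. That check says nothing of UMIs that cluster in single cells. Shares carry Clopper-Pearson intervals, and a count of 0 was taken to allow 3 counts. With a single library on each side, nothing was tested and no p-value is given.

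The members, the gene lists and the comparisons were chosen with earlier results of these data known. Genes were named by rule. Against the rest, these were the 20 highest and 12 lowest genes by the weaker library's log2 ratio at a member CPM of at least 50. Between the sets of members, they were the 12 highest and 12 lowest at a mean CPM of at least 100 with UMIs in at least 5 members. Predicted, mitochondrial, ribosomal protein and immunoglobulin variable genes were left out of the naming, and up to 4 genes of every list were added. Mpo, Prtn3, Flt3 and Ifi47 between the sets of members, and the split by the number of selection genes, were singled out after their values were seen. Coordinates are from GENCODE M21. Alternatives changed the threshold, filter, weighting, depth and doublet treatment. 1 gene met by the naming rule is not reported here.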

Additional observations from a re-analysis of the deposited data

Results flagged for a closer look

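Of the genes named by size between the sets of members, 10 were flagged for log2 ratios of opposite sign in members and rest. The ratios are of irradiated over control. The flag did not cover every gene in the text with opposite signs. Cenpm, Cd34 and Ebf1, with values above, and Flt3, at 1.06 and -1.48, had them too. With 1 library per group, these differences were not tested. Junb was at 1.18 in members and -0.74 in the rest, H2-T23 at 1.01 and -0.24, Ifi203 at 0.83 and -0.43, and Cdkn1a at 0.74 and -0.43. H2-T23 and Ifi203 kept their positive sign in members under all 12 alternatives, while Junb and Cdkn1a did so in 11 of 12. With all selection genes detected, Junb was at -0.17 (-0.66 to 0.30) and Cdkn1a at -0.36 (-0.91 to 0.15). The alternatives reuse the same cells, so a kept sign is no independent support.

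Among the genes lower in irradiated members, Pbk was at -0.84 in members and 0.20 in the rest, Ezr at -0.84 and 0.21, Fbxo5 at -0.82 and 0.25, Hist1h1b at -0.80 and 0.66, and Ccnd3 at -0.79 and 0.11. All 5 stayed negative in members under all 12 alternatives, which reuse the same cells. Pbk, Fbxo5, Hist1h1b and Ccnd3 act in cell division, and Ezr encodes ezrin, which links the membrane to actin.

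Igkc was at -9.47 in members and 6.72 in the rest. In control members 1 cell held 7185 of 7512 UMIs, and without it the log2 ratio in members was -4.96. In the irradiated rest 1 cell held 14940 of 28434 UMIs. Without the top cell of each library the rest stood at 82.8 CPM after irradiation and 1.43 CPM in control.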

How the results depend on the processing

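The control share of members exceeded the irradiated share under every one of the 11 alternatives run for it. Without the 6% of cells with the highest doublet scores, which took out 14 of the 29 irradiated members, the irradiated share was 0.313%, 317 genes were higher in irradiated members than in the rest, and 142 were higher and 120 lower in irradiated than in control members. With only the members in which all of the selection genes were detected, 8 genes were higher and 7 lower in irradiated members. The count of higher genes was 28 at a sum of 5 or more, 9 at a sum of 20 or more, 36 with each cell weighted equally and 8 without each gene's top cell. When listing asked for 200 CPM, the counts were 60 (control members over rest), 36 (irradiated members over rest), 5 (higher) and 2 (lower), where fewer genes were tested. Among single genes the log2 ratio changed sign for Ctla2a (1.47) and Kit (0.48) without the highest doublet scores, for Kit with cells weighted equally (0.63), for Pax5 at a sum of 5 or more (-0.13), for Cd34 at a sum of 20 or more (-0.43), and for Junb (-0.17), Cdkn1a (-0.36), Cd34 (-0.40) and Igkc (2.05, -1.74 to 5.84) with all selection genes detected. The cause was not tested. Over 12 alternatives Ly6a ran from 2.44- to 6.26-fold higher and Ifi27l2a from 2.21- to 3.72-fold, while the Ighm log2 ratio ran from -1.26 to -0.13.

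No paired analysis was possible because each group is 1 library. With 29 irradiated members and 702402 UMIs, the precision of each ratio is limited, and a count of 0 cells allows a share of up to 10.3% of those members.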

Other observations

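Igha, the IgA heavy chain constant region, came mostly from 1 cell outside the members of the irradiated library, which held 7195 of the 8260 Igha UMIs there, against 4 UMIs in the rest of the control library. The members themselves held 1 Igha UMI after irradiation and none in control. Jchain, which joins IgA and IgM units, was at 38.2 CPM in control members, where a single cell held every UMI, and at 0 in irradiated members.

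Variable region genes were sparse in both sets of members. Any UMI of an Ighv gene was held by 26 of 115 control members (22.6%, 15.3 to 31.3) and 12 of 29 irradiated members (41.4%, 23.5 to 61.1), beside 6.81% and 4.04% of the rest. More than 5 such UMIs were held by 1 control and 1 irradiated member.

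Of the 26 interferon genes, 19 were under the listing threshold between the sets of members. At 5000 UMIs per cell, 18 of them were detected in a member, 15 in a larger share of irradiated members (83.3%) and 3 in a larger share of control members. Over all 8507 genes under the threshold and so detected, the share was larger in irradiated members for 42.6%. This tally was added after the data were seen, and it was not tested. At full depth, Isg15 was detected in 12 of 29 irradiated and 8 of 115 control members, Irf7 in 14 and 14, Zbp1 in 10 and 11, and Rtp4 in 20 and 29. These examples were picked after their values were seen. Socs2, a feedback inhibitor of cytokine signalling, was detected in 15 of 29 irradiated and 17 of 115 control members, at 55.5 and 12.9 CPM.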
